A study of Mus musculus with 8 samples.

Results

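The transcripts of 40 genes of the autophagy machinery and its cargo receptors were followed in cells of mouse parietal bone. The genes were chosen by symbol from knowledge of the pathway, and all 40 were among the 31053 genes listed in the matrices, each under 1 symbol. They comprised 5 ATG8 proteins, 5 selective receptors, 4 ER-phagy receptors, 5 members of the ULK complex, 5 of the class III PI3K complex, 5 membrane supply proteins, 7 conjugation enzymes and partners, 2 transcription factors and 2 lysosome membrane proteins.

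Autophagy delivers cytoplasm, organelles and protein aggregates to the lysosome. The ULK kinase complex starts it, the class III phosphatidylinositol 3-kinase (PI3K) complex marks the membrane, WIPI, ATG2 and ATG9 proteins supply lipid, and the conjugation enzymes attach ATG8 proteins (LC3 and GABARAP) to the growing autophagosome. Receptors then tether cargo to ATG8 proteins, among them the receptors of ER-phagy, the removal of parts of the endoplasmic reticulum (ER), a known route by which cells that secrete collagen dispose of misfolded procollagen. The transcription factors TFEB and TFE3 switch on autophagy and lysosome genes, and LAMP1 and LAMP2 are the main glycoproteins of the lysosome membrane.

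Parietal bones were taken from pups of the strain B6.129(FVB)-Col1a2tm1Mcbr/J, which the study kept on a C57BL/6J background, at postnatal days 4 to 5. Of the 8 droplet libraries, 4 came from wild type (WT) pups (S1, S2, S5 and S6) and 4 from pups heterozygous for the G610C substitution in the α2 chain of type I procollagen (Het, S3, S4, S7 and S8), a germline model of osteogenesis imperfecta in which every cell carries the allele. Libraries S1 to S4 were made with kit version 3 and S5 to S8 with kit version 3.1, 2 of each genotype per kit. Cells of several pups of 1 genotype were pooled in a library, so p-values measure the spread between such pools.

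The libraries held 30480239 to 85162035 UMIs each (unique molecular identifiers, each 1 captured transcript). After quality control 46420 of 68625 barcodes were kept, of which 2671 were osteoblasts (OBs), selected by Col1a1, Runx2, Sp7 and Ibsp. They were split by the Col1a1 percent of UMIs into 379 early (eOBs, under 0.75%), 1217 differentiating (dOBs, 0.75% to 3.5%) and 1075 mature osteoblasts (mOBs, over 3.5%). Each library had 42 to 299 mOBs, whose summed counts ran from 664702 to 4805858 UMIs, and at most 24 cell barcodes were shared by any 2 libraries. The 7 osteoblast markers not used for selection summed to 66300 to 210000 CPM (counts scaled to a common library total) in mOBs and to 553 to 2960 CPM in the haematopoietic-like cells described below. Within each kit version the mOB sums were lower in Het, at 210000 and 209000 CPM in WT S1 and S2 against 120000 and 126000 CPM in Het S3 and S4, and at 104000 and 108000 CPM in WT S5 and S6 against 66300 and 103000 CPM in Het S7 and S8 (4 of 7 markers lower and 3 higher in the Het mean). Bglap, which encodes the bone matrix protein osteocalcin, was at 5192 to 24320 CPM in WT mOBs and at 548 to 4258 CPM in Het mOBs. These did not overlap, as held for 2.21% of all genes. Col1a2, the largest part of every sum, was at 56470 to 116800 CPM in WT and 33450 to 68750 CPM in Het. The 3 markers higher in the Het mean overlapped. Ifitm5 was at 312 to 1146 CPM in WT and 257 to 1840 CPM in Het. Dmp1 was at 255 to 698 and 352 to 1122 CPM, and Alpl at 368.5 to 667.8 and 366.6 to 753.9 CPM. The mOBs compared by genotype thus differed in osteoblast markers, and the part of this in the values below was not tested. Markers of other cells were also present in mOBs. The 11 haematopoietic markers summed to 961 and 714 CPM in WT S1 and S2, to 18.7 and 10.1 CPM in WT S5 and S6, and to between 1.6 and 226 CPM in the Het libraries (9 markers lower and 1 higher in the Het mean, Cd3e at 0 in all). The 6 markers of smooth muscle and pericytes summed to between 90.3 and 230 CPM in WT and between 305 and 483 CPM in Het (5 of 6 higher in the Het mean), and the 5 cartilage markers to between 41.3 and 973 CPM in WT and between 273 and 2460 CPM in Het (5 of 5 higher). The 6 erythroid markers had the highest of these sums, 18600 CPM in WT S2 and 3610 CPM in Het S4, and were at 28.9 to 704 CPM in the other 6 libraries (6 of 6 lower in the Het mean). The 6 endothelial markers summed to between 9.22 and 16.1 CPM in WT and between 3.21 and 42 CPM in Het (6 of 6 higher), and the 4 fibroblast markers to between 1.1 and 4.3 CPM and between 0 and 48.5 CPM (4 of 4 higher).

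The first comparison asked whether the mutation changed transcripts of the autophagy machinery in the cells that make the most procollagen. In mOBs it was not seen to: edgeR called 0 of the 39 members tested at an adjusted p under 0.05, where 0.53% of all 9623 genes were called. Tfeb, with 156 UMIs over the 8 libraries, fell below the low-count filter and was not tested. The median log2 fold change (Het over WT) of the members was -0.03, beside 0.01 for all genes. An unadjusted p under 0.05 was found for 5 members, of 39, and for 11.2% of all genes. In the same sums 3 of 4 tested genes of the stress response were called, Slc7a5 at 2.54, Asns at 2.34 and Atf5 at 2.03 on the log2 scale. The fourth, at 0.37, was not called. Without the kit version term edgeR called 0 of 9623 genes, so these 3 calls were lost. The stress genes were listed with earlier results of these data known. Their calls therefore do not show that smaller changes of the members could be seen. With osteoblasts left out that bore at least 3 markers of the haematopoietic, the endothelial or the smooth muscle and pericyte list, the count of members called was again 0, while the parts of the cartilage, fibroblast and erythroid markers were not tested. In summed counts, more cells with a transcript and more transcript per cell cannot be told apart.

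The members together made up 0.295% ± 0.0234 (SD, n = 4) of the UMIs of WT mOBs and 0.299% ± 0.0254 (n = 4) of those of Het mOBs. With collagen UMIs taken out of the total, which were 15.96% to 21.4% in WT and 12.1% to 16.4% in Het, the shares were 0.360% ± 0.0213 and 0.347% ± 0.0331. Both pairs differed by less than the spread between libraries.

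The intervals set a bound on what could have gone unseen. The 95% interval of the log2 fold change lay within -1 to 1, a doubling or halving, for 36 of the 39 members and within -0.5 to 0.5 for 17. The exceptions to the first bound were Ccpg1, Pik3r4 and Atg14, and the last was the least abundant member tested, at 9.03 CPM. The plot of fold changes by role shows these intervals.

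**Figure D1:**
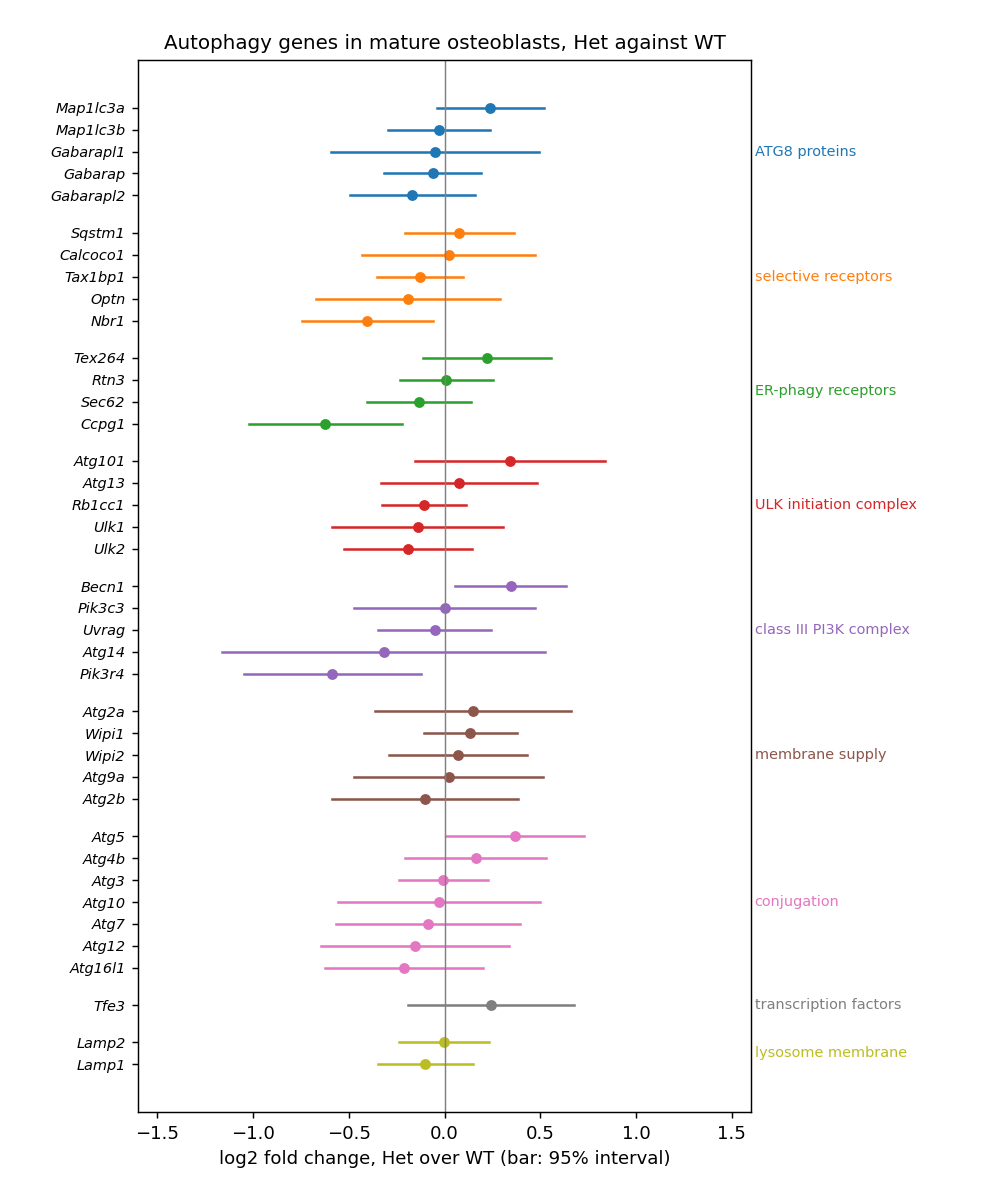
Log2 fold change (x axis, Het over WT) of the 39 members tested in mOBs, with its 95% interval (bar), grouped by role. Points lie on both sides of 0 in most roles, from -0.62 (Ccpg1) to 0.37 (Atg5), and no member passed an adjusted p of 0.05.

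The 6 members with the lowest p are described by their levels, in TMM-scaled CPM, with WT libraries in the order S1, S2, S5, S6 and Het libraries in the order S3, S4, S7, S8. Ccpg1, an ER-phagy receptor in the ER membrane and itself a stress-induced gene (ENSMUSG00000034563, GRCm38 chromosome 9, 72985429 to 73016340), was at 52.4, 40.2, 35.5 and 35.1 CPM in WT and at 44.8, 31.3, 17.2 and 20.8 CPM in Het mOBs. Het S3 lay above 3 of the WT libraries, while Het S4, S7 and S8 lay below all WT libraries. On the log2 scale the difference was -0.62 (SE 0.18, unadjusted p 0.0051, adjusted p by edgeR 0.184), -0.35 within the first kit and -0.95 within the second. No other member was called in mOBs under any alternative. Without the low-count filter its adjusted p was 0.0287 at -0.61, over 17 other alternatives it ran from 0.0962 to 0.46, and without the kit version term it was 0.99999.

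Pik3r4 encodes VPS15, the regulatory kinase subunit of the class III PI3K complex (chromosome 9, 105642978 to 105687657). Its levels were 24.1, 21.2, 14.2 and 15.8 CPM in WT and 13.1, 12.1, 11.6 and 12.8 CPM in Het mOBs, from 250 UMIs in all. Every Het library lay below every WT library, which held for 1 of the 39 members and for 2.21% of all genes. The fitted log2 difference of -0.59 (SE 0.21) did not pass the test (adjusted p by edgeR 0.278), and it was -0.87 within the first kit and -0.33 within the second.

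Becn1, the scaffold of the same complex, was at 36.1, 44.5, 31.0 and 32.1 CPM in WT and at 50.4, 56.9, 35.9 and 41.7 CPM in Het mOBs. Both Het libraries lay above both WT libraries within each kit version, but the groups overlapped across kits. The log2 fold change came to 0.34 (SE 0.13, adjusted p by edgeR 0.337). The lipid kinase itself, Pik3c3, differed by 0.00 (SE 0.22), so the subunits of the complex had values of either sign, and none passed the test. Uvrag (-0.05) and Atg14 (-0.32), the subunits that direct the kinase to endosomes and to autophagosomes, were not called either.

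Nbr1, a receptor for ubiquitinated cargo, was at 61.0, 63.5, 55.5 and 65.4 CPM in WT and at 38.2, 61.2, 40.5 and 44.9 CPM in Het mOBs. Het S4 lay within the WT range and the other Het libraries below it (log2 fold change -0.40, SE 0.16, adjusted p by edgeR 0.339). Atg5, which forms the conjugation complex with ATG12 and ATG16L1, was at 25.8, 41.3, 33.8 and 36.0 CPM in WT and at 54.1, 37.6, 43.0 and 44.9 CPM in Het mOBs. Only Het S4 lay within the WT range (log2 fold change 0.37, SE 0.17, adjusted p 0.425). Map1lc3a, one of the LC3 genes, was at 78.2, 109, 102 and 110 CPM in WT and at 119, 106, 108 and 144 CPM in Het mOBs, with overlapping groups (0.24, SE 0.13, adjusted p 0.534).

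**Figure D2:**
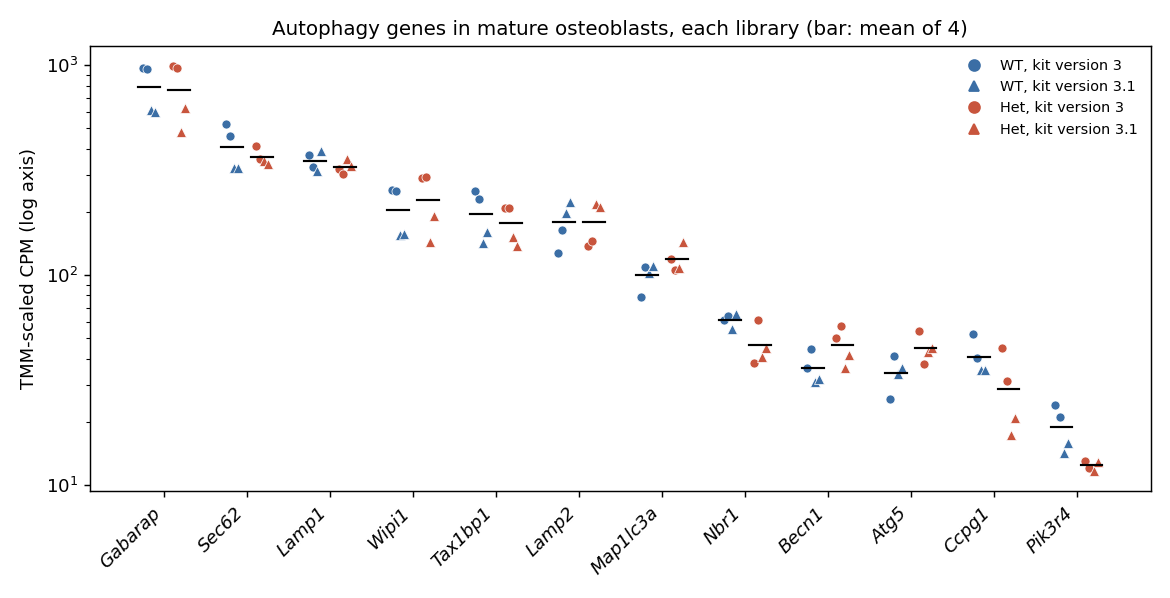
TMM-scaled CPM (log axis) of 12 members in mOBs of each library, blue for WT and red for Het, circles for kit version 3 and triangles for kit version 3.1, with a bar at the mean of 4 libraries. The genotypes overlap for every member but Pik3r4 (14.2 to 24.1 CPM in WT, 11.6 to 13.1 CPM in Het), and for Gabarap, Sec62, Wipi1, Tax1bp1 and Lamp2 the kit versions separate.

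The 6 members with the highest levels in mOBs, in UMIs counted at transcript ends and not divided by length, were followed in the same way. Gabarap, an ATG8 protein, was at 971, 962, 614 and 601 CPM in WT and at 991, 968, 480 and 624 CPM in Het mOBs. The level was lower in kit version 3.1 in both genotypes, and within a kit the genotypes overlapped (log2 fold change -0.06, SE 0.12). Sec62, a translocon subunit that acts as an ER-phagy receptor during recovery from stress, was at 528, 458, 323 and 322 CPM in WT and at 412, 356, 349 and 340 CPM in Het mOBs (-0.13, SE 0.13). Wipi1, which binds the phosphatidylinositol 3-phosphate made by the PI3K complex, was at 254, 252, 156 and 157 CPM in WT and at 289, 293, 143 and 191 CPM in Het mOBs (0.13, SE 0.11).

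The receptor Tax1bp1 ranged from 143 to 253 CPM in WT and from 138 to 210 CPM in Het mOBs (-0.13, SE 0.10). Lamp1 ranged from 313 to 392 CPM in WT and from 304 to 359 CPM in Het (-0.10, SE 0.11), and Lamp2 from 128 to 222 CPM in WT and from 138 to 219 CPM in Het, at a log2 fold change of 0.00 (SE 0.11). These 6 members had the narrowest intervals of the named members, and their groups overlapped throughout.

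The other members are given by role. Log2 fold changes of the ATG8 genes ran from -0.17 (Gabarapl2) to 0.24 (Map1lc3a), of the selective receptors from -0.40 (Nbr1) to 0.08 (Sqstm1, the p62 receptor of protein aggregates), and of the ULK complex from -0.19 (Ulk2) to 0.34 (Atg101). The ER-phagy receptors ran from -0.62 (Ccpg1) to 0.22 (Tex264), with Rtn3, a shaper of ER tubules, at 0.01. The membrane supply genes lay between -0.10 (Atg2b) and 0.15 (Atg2a), and the conjugation genes between -0.21 (Atg16l1) and 0.37 (Atg5). Tfe3 was at 0.24. No role had a member called. Of the 12 members reported as targets of ATF4 or CHOP, transcription factors of the integrated stress response, 3 had a positive and 9 a negative value, with a median of -0.05 and 0 called. Kit versions gave the same sign for 20 of 39 members.

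Other genes of the pathway gave the same count. In mOBs 0 were called of 24 further autophagy genes, 12 further receptors, 23 tested genes of mTORC1 and AMPK control, 20 tested lysosome hydrolases, 14 tested V-ATPase subunits and 11 tested genes of the lysosome membrane and sorting, and the medians ran from -0.05 to 0.13. The lowest p values were those of Sesn3 (-0.57, SE 0.14, adjusted p by edgeR 0.118) and Sesn1 (-0.55, SE 0.18, adjusted p 0.262), stress-inducible sestrins that hold back mTORC1, and of the cathepsin Ctsf (-0.54, SE 0.14, adjusted p 0.142).

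Less mature osteoblasts and the remaining cells gave no calls among the members either. In dOBs edgeR called 0 of 40 members, where 0.0101% of 9857 genes were called, and 2 members had an unadjusted p under 0.05, Calcoco1 (-0.63, SE 0.25) and Wipi2 (-0.33, SE 0.14), beside 7.51% of all genes. The smooth muscle and pericyte markers did not overlap between genotypes in dOBs, at 364 to 508 CPM in WT and 527 to 729 CPM in Het (5 of 6 higher in the Het mean). In dOBs the haematopoietic markers summed to 43.1 to 551 CPM in WT and 9.15 to 99.5 CPM in Het (11 of 11 lower), the endothelial markers to 9.11 to 88.7 and 10.1 to 96.9 CPM (6 of 6 higher), the cartilage markers to 84.2 to 4100 and 341 to 4470 CPM (5 of 5 higher) and the erythroid markers to 97.9 to 7590 and 23.5 to 6750 CPM (5 of 6 lower). With osteoblasts left out by markers as in mOBs, 0 of 40 members were called in dOBs and 0 of 25 in eOBs. In eOBs, with 204130 to 1296848 UMIs per sum, 0 of 37 members and 0% of 8118 genes were called by edgeR. Ccpg1, Pik3r4 and Atg14 were too low to be tested there, and 3 members had an unadjusted p under 0.05, Map1lc3b (-0.43, SE 0.16), Atg2b (0.80, SE 0.31) and Tfeb (1.04, SE 0.45), beside 3.82% of all genes. Only 26 of the 37 intervals lay within a doubling in eOBs. The smooth muscle and pericyte markers summed to 408 to 576 CPM in WT eOBs and 352 to 1610 CPM in Het eOBs (6 of 6 higher in the Het mean), and the cartilage markers to 18.1 to 19700 and 1040 to 7290 CPM (5 of 5 lower). In eOBs the haematopoietic markers summed to 974 and 515 CPM in WT S1 and S2, 74.2 and 48.1 CPM in WT S5 and S6 and 6.5 to 235 CPM in Het (6 lower, 4 higher). The endothelial markers summed to 24.1 to 538 and 13 to 995 CPM (4 of 6 lower), and the erythroid markers to 165 to 26100 and 62.2 to 11800 CPM (5 of 6 lower). In all cells other than OBs edgeR called 0 of 40 members and 0% of 16502 genes, and 4 members had an unadjusted p under 0.05 (Atg2a, Atg9a, Atg101 and Becn1, from -0.47 to -0.35), beside 25.7% of all genes. DESeq2 called 1 of 40 members in these cells, Atg2a, beside 11.6% of all genes. These cells differed in make-up, since the 11 haematopoietic markers summed to 29700 and 23400 CPM in WT S1 and S2, to 862 and 692 CPM in WT S5 and S6 and to between 318 and 2020 CPM in Het (11 of 11 lower in the Het mean). The erythroid markers summed to 52200 and 227000 CPM in WT S1 and S2, to 4360 and 4130 CPM in WT S5 and S6 and to between 398 and 14000 CPM in Het (6 of 6 lower). The cartilage markers summed to 1820 and 2910 CPM in WT S1 and S2, to 29600 and 29100 CPM in WT S5 and S6 and to between 8220 and 39900 CPM in Het (5 of 5 higher). The smooth muscle and pericyte markers did not overlap, at 319 to 495 CPM in WT and 617 to 922 CPM in Het (6 of 6 higher). Whether this make-up bears on these values was not tested.

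Library ranges overlapped for all members tested in dOBs, where 1.64% of genes did not overlap, and for all but Lamp2 in eOBs, where 1.23% did not. Lamp2 was at 274, 259, 202 and 203 CPM in WT eOBs and at 140, 187, 195 and 201 CPM in Het eOBs. All 4 Het values were lower, the nearest by less than 1 CPM, and the difference did not pass the test (-0.32, SE 0.18, unadjusted p 0.0963 by edgeR). An interaction term asked whether the Het change was unequal in the mature and differentiating stages, and edgeR called 0 of 40 members and 0% of 10580 genes, with 1 member and 4.61% of genes at an unadjusted p under 0.05. That member was Atg5, with a difference of 0.42 (SE 0.17, unadjusted p 0.0295). On simulated counts this interaction test recovered 8% of differences of 1 on the log2 scale and 94% of those of 2. The lack of calls therefore cannot decide whether the Het change was equal in both stages. The interval of the difference lay within a doubling or halving for 33 of the 40 members. The change in mOBs differed between kit versions for 0 of 40 members, where 0.0861% of all genes were called, and the lowest p was that of Tex264, at 0.61 in kit version 3 and -0.10 in kit version 3.1 (unadjusted p 0.0113).

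The next comparison asked which members change with maturation, mOBs against eOBs of the same library. Of the 40 members 10 were called, 9 higher and 1 lower in mOBs, beside 28% of 9217 genes (14.8% higher and 13.2% lower). The members' share called was thus close to that of all genes. The median log2 fold change was 0.06, beside -0.03 for all genes. By role, 3 of the 4 ER-phagy receptors were higher, and so was 1 member each of the ATG8 proteins, the selective receptors, the ULK complex, the membrane supply genes, the conjugation genes and the lysosome membrane genes. Calcoco1, which also serves ER-phagy but was counted with the selective receptors, was not called. The member lower in mOBs belonged to the PI3K complex, and neither transcription factor was called (Tfeb -0.59, Tfe3 -0.58).

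Stage was set by Col1a1, and collagen UMIs took 12.1% to 21.4% of the mOB sums but 1.21% to 4.76% of the eOB sums. When levels were taken over UMIs other than collagen genes, without TMM, the median of all genes moved by -0.20, and 12 of 40 members were called, 5 higher and 7 lower, beside 35.4% of all genes, and 6 of the 12 were among the 10. Wipi1, Gabarap, Ccpg1, Optn and Sec62 rose and Uvrag fell in both, while Tex264, Atg3, Lamp1 and Rb1cc1 were positive in both but called only with TMM scaling. Relative to the median of all genes, these 4 lay at 0.35 to 0.59 on either scale.

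Ccpg1 rose most. Its levels in eOBs were 14.1, 3.01, 12.5 and 12.0 CPM in WT (S1, S2, S5, S6) and 7.78, 4.57, 5.47 and 10.8 CPM in Het (S3, S4, S7, S8), from 69 UMIs in all. Each library was higher in mOBs, by the values given above, and 7 of 8 were already higher in dOBs than in eOBs. The log2 fold change was 1.74 (SE 0.20, adjusted p by edgeR 3.21e-05).

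Wipi1 (chromosome 11, 109573331 to 109611967) was at 104, 102, 47.3 and 59.2 CPM in WT eOBs and at 81.6, 86.8, 60.8 and 75.8 CPM in Het eOBs, and at 143 CPM or more in every mOB sum. It was higher in 8 of 8 libraries at each step, from a mean of 77.2 ± 20.5 CPM (SD, n = 8) in eOBs to 108 ± 19.9 in dOBs and 217 ± 62.1 in mOBs (log2 fold change 1.42, SE 0.10, adjusted p 7.78e-07). Gabarap (chromosome 11, 69991143 to 69994951) was higher in 8 of 8 libraries at each step as well, from 343 ± 66.6 to 473 ± 81.9 and 776 ± 215 CPM (1.09, SE 0.10, adjusted p 6.19e-06). No eOB sum of either gene reached the lowest mOB sum.

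Optn, a receptor for ubiquitinated cargo and damaged mitochondria, rose from 23.6 ± 5.40 to 48.6 ± 13.2 CPM, in 7 of 8 libraries (log2 fold change 1.08, SE 0.21, adjusted p by edgeR 0.00184). Het S3 was the exception, at 31.1 CPM in eOBs and 24.3 CPM in mOBs. Sec62 was higher in 8 of 8 libraries at each step, from 265 ± 42.3 to 308 ± 54.4 and 386 ± 74.2 CPM (0.49, SE 0.09, adjusted p 0.00163). GENCODE annotates an antisense transcript over its first exon, and the strand setting of the counting is not given in the sources used here.

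Smaller rises were those of Tex264, the third ER-phagy receptor (log2 fold change 0.56, SE 0.20, adjusted p 0.0473), Atg3, the enzyme that attaches ATG8 proteins to lipid (0.44, SE 0.10), Lamp1 (0.37, SE 0.09) and Rb1cc1, the FIP200 scaffold of the ULK complex (0.33, SE 0.10, adjusted p 0.0206). Atg3, Lamp1 and Rb1cc1 were higher in mOBs in 8 of 8 libraries. Tex264 was so on the scale of all 5 cell groups, but on the scale of the 2 stages alone Het S3 was at 64.0 CPM in eOBs and 62.7 CPM in mOBs. Tex264 had the least stable call, kept in 10 of the 21 alternatives that tested it, and its adjusted p rose to as much as 0.238. The Tex264 level in eOBs of Het S4 was 9.14 CPM, beside 30.0 CPM or more in the other 7 libraries. Rb1cc1 kept its call in 14 of 22 alternatives.

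Uvrag fell, by 0.55 on the log2 scale (SE 0.15, adjusted p by edgeR 0.0128). Its level differed by kit, at 13.7 to 35.0 CPM in eOBs and 20.1 to 24.3 CPM in mOBs of kit version 3, and at 90.7 to 123 CPM in eOBs and 62.6 to 76.2 CPM in mOBs of kit version 3.1. It was lower in mOBs in 7 of 8 libraries. The exception was Het S4, with 13.7 CPM in eOBs and 21.7 CPM in mOBs.

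**Figure D3:**
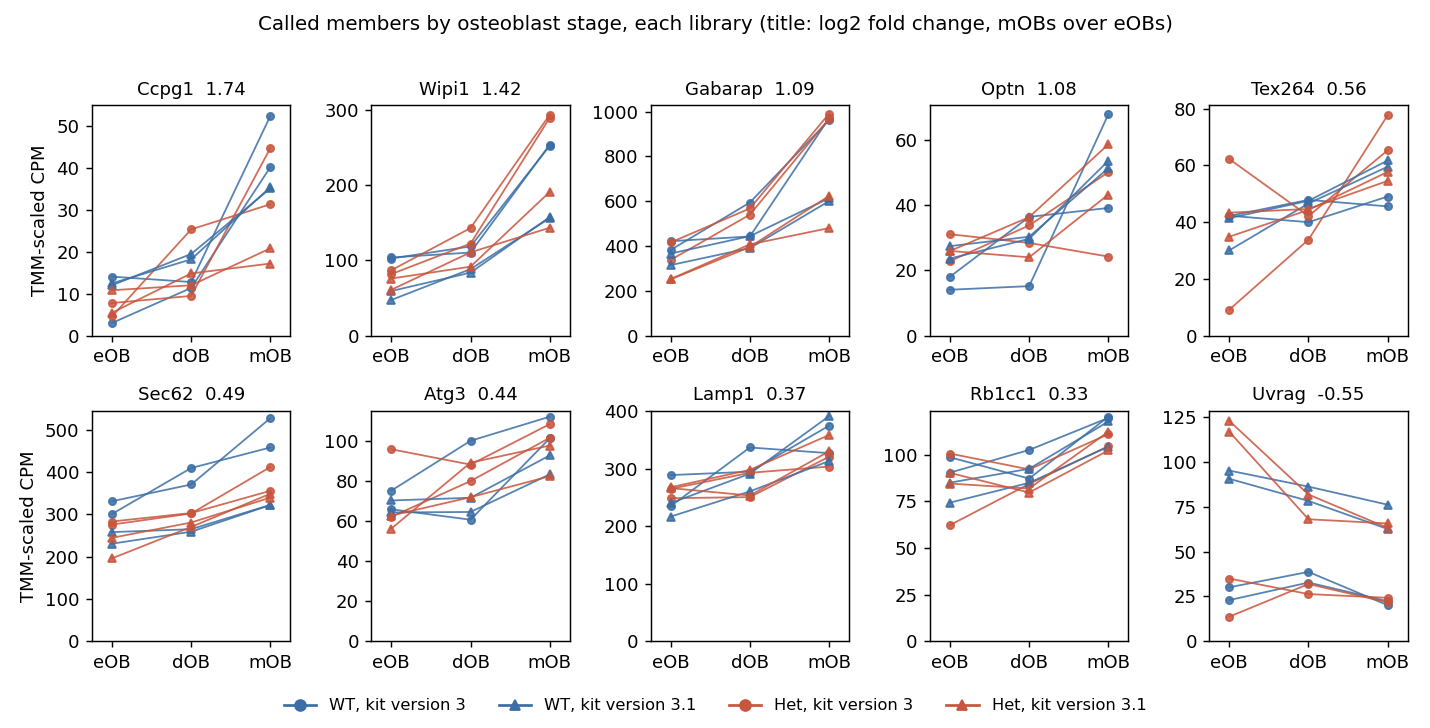
TMM-scaled CPM (y axis, from 0) of the 10 members called between mOBs and eOBs, by stage, with 1 line per library (blue WT, red Het, circles kit version 3, triangles kit version 3.1) and the log2 fold change in each title. Wipi1, Gabarap and Sec62 rise at each step in every library, and the Uvrag lines fall into separate bands by kit version.

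The remaining 30 members were not called, and their log2 fold changes ran from -0.59 (Tfeb) to 0.70 (Atg13, SE 0.30, adjusted p 0.100). Within the ATG8 family Map1lc3b was at 180 ± 43.8 CPM in eOBs and 164 ± 51.0 in mOBs and Map1lc3a at 115 ± 28.4 and 110 ± 18.4, and neither LC3 gene was called. The fourth ER-phagy receptor, Rtn3, was at -0.12 (SE 0.11). Lamp2 was at -0.27 (SE 0.14, adjusted p 0.181), of the opposite sign to Lamp1.

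Of the other pathway genes, 4 of 24 further autophagy genes were higher in mOBs and 0 lower, where 14.8% of all genes were higher and 13.2% lower, led by Ykt6, a SNARE of autophagosome fusion (0.95, SE 0.17), and Nrbf2, a PI3K subunit (0.71, SE 0.17). Of 20 lysosome hydrolases tested 4 were higher, among them Ctsk, the collagen-cleaving cathepsin K (1.64, SE 0.31), and Ctsf (0.69, SE 0.11). Of 14 V-ATPase subunits 4 were higher, of 10 genes of the lysosome membrane and sorting 3 were higher, and of 21 genes of mTORC1 and AMPK control 2 were higher and 3 lower. None of 12 further receptors was called by edgeR, with 1 at an unadjusted p under 0.05.

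Markers of other cells differed between the stages too. The smooth muscle and pericyte markers summed to 352 to 1610 CPM in eOBs and 90.3 to 483 CPM in mOBs, the cartilage markers to 18.1 to 19700 and 41.3 to 2460 CPM, and the haematopoietic markers to 6.5 to 974 and 1.6 to 961 CPM. The endothelial markers summed to 13 to 995 CPM in eOBs, with 535, 538 and 995 CPM in S5, S6 and S7, and to 3.21 to 42 CPM in mOBs. The erythroid markers summed to 62.2 to 26100 CPM in eOBs and to 28.9 to 18600 CPM in mOBs. With osteoblasts left out that bore at least 3 markers of the haematopoietic, the endothelial or the smooth muscle and pericyte list, 8 of the 37 members tested were called, 8 higher and 0 lower, beside 24.5% of all genes, and all 8 were among the 10. Uvrag (-0.33, SE 0.20, adjusted p 0.260 by edgeR) and Tex264 (0.47, SE 0.20, adjusted p 0.110) lost their call there. With every osteoblast left out that had any haematopoietic marker, chosen after seeing the data, 6 of the 35 members tested were called, beside 21.5% of all genes, all 6 among the 10, and Uvrag was not among them. The parts of the cartilage, fibroblast and erythroid markers were not tested.

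RefSeq promoters (GRCm38.p6, 250 bases before to 50 bases after the start) were found for 34 of the 40 members, and none was listed for Map1lc3a, Becn1, Pik3c3, Rb1cc1, Atg16l1 and Atg12. The motif CACGTG, an E-box that TFEB, TFE3 and related factors can bind and that reads the same on both strands, was in the promoters of 6 of the 34, namely Lamp1, Sec62, Atg3, Atg5, Atg7 and Atg14, and in 7.15% of all 32851 promoters. The longer motif TCACGTGA, which contains it, was in those of Sec62 and Atg3 and in 0.974% of all. TGATGNAA, searched on both strands as a form of the ATF4 and CEBP composite element, was in 0 of 34 and in 3.97% of all, and TGTGGTT, a RUNX element searched on both strands, in those of Atg4b and Calcoco1 and in 5.27% of all. A match is a description of letters and not of binding.

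The E-boxes of the 3 members that were both called higher in mOBs and matched are shown in capitals, in the stretch up to 120 bases before the RefSeq start that lies outside annotated exons of coding transcripts. Lamp1 (chr8:13159041-13159160) has 4, starting 61, 45, 28 and 15 bases before the start, Sec62 (chr3:30792756-30792874) has 1, at 32 bases, and Atg3 (chr16:45158709-45158784) has 2, at 94 and 71 bases. All 3 are on the plus strand.
Lamp1: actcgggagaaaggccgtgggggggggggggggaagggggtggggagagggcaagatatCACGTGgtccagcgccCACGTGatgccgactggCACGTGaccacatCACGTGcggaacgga
Sec62: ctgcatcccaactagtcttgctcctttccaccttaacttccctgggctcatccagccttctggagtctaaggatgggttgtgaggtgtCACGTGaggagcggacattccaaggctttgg
Atg3: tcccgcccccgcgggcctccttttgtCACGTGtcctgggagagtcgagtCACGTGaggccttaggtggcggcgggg
The members with the largest rises, Ccpg1, Wipi1, Gabarap and Optn, had none of the 4 motifs in this window.

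Osteoblasts were then set against the other cells of the same libraries. Against all 43749 cells that were not OBs, 14 of 40 members were called, 3 higher and 11 lower in OBs, beside 35.7% of 14291 genes (14.8% higher, 20.9% lower). The members higher in OBs were Wipi1, Tex264 and Atg3. Wipi1 was at 109 to 231 CPM in OBs and 53.4 to 90.4 CPM in the other cells, higher in 8 of 8 libraries (log2 fold change 1.16, SE 0.10, adjusted p by edgeR 1.78e-05). Tex264 was higher in 8 of 8 libraries (0.42, SE 0.11) and Atg3 in 7 of 8 (0.29, SE 0.10, adjusted p 0.0418).

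The members lower in OBs included 3 of the 5 ATG8 genes. Map1lc3b was at 99.1 to 207 CPM in OBs and 192 to 353 CPM in other cells, lower in 8 of 8 libraries (log2 fold change -0.71, SE 0.09, adjusted p by edgeR 0.000228), and Gabarapl1 (-0.54) and Gabarapl2 (-0.44) were also called lower. Tfeb was at 4.50 to 14.1 CPM in OBs and 9.43 to 19.8 CPM in other cells (-0.71, SE 0.19, adjusted p 0.0150). Uvrag (-0.57, SE 0.11) and Atg101 (-0.56, SE 0.15), the latter a subunit of the ULK complex, followed, and Sqstm1, Atg14, Atg12, Ulk1 and Rtn3 lay between -0.50 and -0.31. Gabarap, at 0.28 (SE 0.11, adjusted p 0.0672), was of the opposite sign to these 3 ATG8 genes.

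A single named class was used as a second comparison, 6118 haematopoietic-like cells, which were cells other than OBs with at least 3 of 11 haematopoietic markers and under 3 markers of each of the endothelial, smooth muscle and pericyte, and cartilage lists. They numbered 2553 and 2152 in WT S1 and S2 and 29 to 671 in the other libraries, so their sums were uneven. The 6 erythroid markers summed to between 34.5 and 56900 CPM in them. Their median depth was 3174 to 10733 UMIs per cell, beside 10757 to 19299 in OBs. Free RNA enters both groups, and its part was not tested. Of the 40 members 27 were called, 9 higher and 18 lower in OBs, beside 65.7% of 11021 genes (31.6% higher, 34% lower).

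Wipi1 was again the member most raised in OBs, at 109 to 227 CPM against 6.82 to 31.7 CPM, which is 2.86 on the log2 scale (SE 0.15, adjusted p by edgeR 3.64e-08). Map1lc3a was at 101 to 124 CPM in OBs and 15.9 to 61.2 CPM in the haematopoietic-like cells (1.68, SE 0.18, adjusted p 7.68e-06), with no overlap. Optn (1.16, SE 0.20) was higher in 8 of 8 libraries and Calcoco1, a cargo receptor that also serves ER-phagy (1.12, SE 0.23), in 7 of 8. Sec62 (0.97), Tex264 (0.76), Atg2b (0.71), Ulk2 (0.55) and Nbr1 (0.41) were also called higher, so all 5 selective receptors passed the test, 3 of them higher, while Sqstm1 (-0.93) and Tax1bp1 (-0.49) were lower.

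Tfeb was the lowest relative to haematopoietic-like cells, at 4.59 to 14.3 CPM in OBs against 18.1 to 36.1 CPM, which is -1.64 on the log2 scale (SE 0.24, adjusted p by edgeR 9.81e-05). Atg7, the E1-like enzyme of both conjugation systems, was at 10.3 to 29.2 CPM in OBs and 25.9 to 70.7 CPM in haematopoietic-like cells (-1.53, SE 0.18). The lipid transfer protein gene Atg2a (-1.43, SE 0.18) and Atg101 (-1.41, SE 0.14) followed. All 4 were lower in OBs in 8 of 8 libraries. Tfe3 was lower as well (-1.29, SE 0.17), and of the 7 conjugation genes 5 were lower and 0 higher. Ccpg1 was not called (-0.14, SE 0.24). In haematopoietic-like cells it ran from 6.82 to 51.8 CPM.

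**Figure D4:**
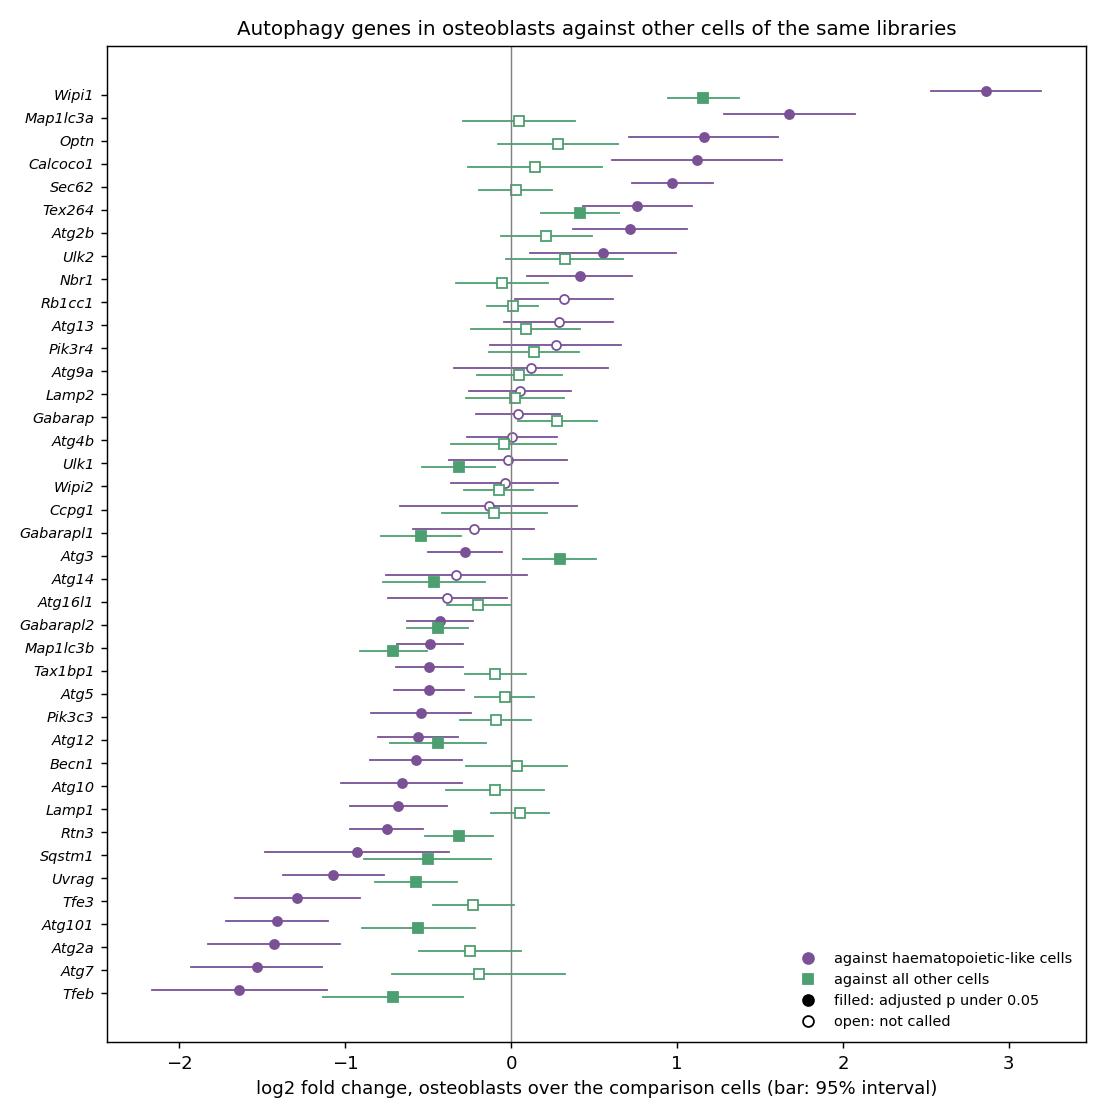
Log2 fold change (x axis, OBs over the comparison cells) of the 40 members with 95% intervals, against haematopoietic-like cells (purple circles) and against all other cells (green squares), filled where the adjusted p was under 0.05. Wipi1 lies highest in both (2.86 and 1.16) and Tfeb lowest in both (-1.64 and -0.71), and Atg3 was called in opposite directions (-0.28 and 0.29).

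Lysosome genes were compared too. All 14 V-ATPase subunits tested were lower than in haematopoietic-like cells, where 34% of all genes were lower, from -2.77 (Atp6v1b2) to -0.72, and of 21 lysosome hydrolases 14 were lower and 2 higher, with a median of -1.31. Lamp1 was lower (-0.68, SE 0.13) and Lamp2 was not called (0.05, SE 0.14). Against all other cells 11 of 15 V-ATPase subunits were lower and 0 higher, beside 20.9% of all genes lower. Of the haematopoietic-like cells' libraries, those of Het alone gave 14 calls among the 40 members, beside 43.7% of all genes, and those of WT alone gave 24, beside 58.5%.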

How the data were processed

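Cells of parietal bone were profiled in 8 droplet libraries, 4 WT and 4 Het. Per the file headers, the authors ran Cell Ranger 5.0.0 for S1 to S4 and 6.0.1 for S5 to S8, and build mm10 is named in the processing notes. The deposited values are unnormalized UMI counts for every gene in every barcode. Kit and software version changed together.

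Cells with at least 500 genes and under 10% mitochondrial UMIs were kept. OBs were selected by 10 or more Col1a1 UMIs together with 2 or more UMIs for 2 or 3 of the genes Runx2, Sp7 and Ibsp. Doublets were kept, with removal by markers as an alternative. Cell classes other than OBs were rebuilt from marker lists, since no annotation was used. Haematopoietic-like cells were non-OBs with at least 3 haematopoietic markers and under 3 of each of the endothelial, smooth muscle and pericyte, and cartilage lists.

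Counts were summed per library and cell group (at least 10 cells) and tested with edgeR 4.0.16 (filterByExpr, TMM, estimateDisp, glmQLFit, glmQLFTest; limma 3.58.1, R 4.3.3), on genotype with the kit version as a covariate, or with the library as a block for comparisons within libraries. P-values were adjusted by Benjamini-Hochberg over all genes tested and a gene was called at an adjusted p under 0.05. Intervals are 95%, from the SE and the t distribution. Levels are CPM scaled by TMM over all sums of 5 cell groups, or of the 2 groups of a comparison with OBs. DESeq2 1.42.0 was an alternative. Sums and tables were made with Python 3.11.15. The edgeR test was tested on simulated counts, with the same dispersion for every gene. Changes of 1 on the log2 scale were recovered for 60% of changed genes in Het against WT mOBs. The share was 80.6% for mOBs against eOBs and 8% for the interaction of genotype and stage. At 2 on the log2 scale the shares were 100%, 100% and 94%.

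Members named with each library's values were those called by genotype, the 6 with the lowest p and the 6 with the highest level in mOBs, and for the other comparisons the 4 called members with the largest changes in each direction. The members and lists were chosen with earlier results of these data known. Gene positions are those of GENCODE M21 (GRCm38), in which all 40 identifiers and symbols were found. The labels do not say whether replicate numbers pair animals or days, and no pairing was used in the main fit. Deviations of same-numbered mOB sums correlated at -0.0496 and -0.0279, which cannot settle this, since the libraries also differ in cell make-up.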

Additional observations from a re-analysis of the deposited data

Results flagged for a closer look

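In 54 groups of 4 libraries, for the members described above in mOBs and eOBs of 1 genotype, the gap of the highest or lowest library to its nearest neighbour was compared with the range of the group. Of these, 4 were past Dixon's 95% critical value, where chance flags about 1 in 20 if the libraries share a common distribution. Each group held both kit versions, and several members differed in level by kit, so that rate need not hold here. In mOBs Rb1cc1 stood at 104 CPM in WT S5, beside 118 to 120 CPM in the other WT libraries. In eOBs Atg3 stood at 96.0 CPM in Het S4, beside 56.3 to 62.9 CPM in the other Het libraries. Lamp1 stood at 249 CPM in eOBs of Het S3, beside 265 to 268 CPM, and Tex264 at 30.0 CPM in eOBs of WT S6, beside 41.4 to 42.2 CPM. The 4 came from 4 different libraries.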

How the results depend on the processing

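The count of members called by genotype was 0 in mOBs, dOBs and eOBs under all alternatives run but 1: without the low-count filter 1 was called in mOBs (Ccpg1). In the other cells DESeq2 called 1 (Atg2a), beside 11.6% of all genes. No count of called members in mOBs changed when any library was left out (range 0 to 0), and the replicate block gave 0. The correlations of same-numbered libraries could not settle whether they were paired. For mOBs against eOBs the count of 10 moved to 3 with cells thinned to 2000 UMIs (14 members tested, 23.5% of all genes called), to 16 against eOBs and dOBs together (34.3%), and, chosen after seeing the data, to 6 in WT libraries alone (15%), 3 in Het libraries alone (12.6%) and 6 of 35 tested without osteoblasts that had any haematopoietic marker (21.5%); with 1 library left out it ran from 8 to 11. For OBs against other cells the count of 14 moved to 7 with thinned cells (26.4% of all genes), to 4 in WT alone (19%) and to 5 in Het alone (23.6%), and ran from 9 (without S6 or S7) to 14 with 1 library left out. Against haematopoietic-like cells the count of 27 moved to 14 in Het alone (43.7%) and ran from 25 to 28. Of 151 values of counts under alternatives 138 stayed within 1.5 times, where 0 beside 0 was counted as unchanged. Many of the 138 are such pairs, from the tests that involve genotype, so this share says little of the comparisons with calls. Wipi1 and Gabarap kept their call between mOBs and eOBs in 22 of 22 alternatives and Ccpg1 in 21 of 21. Rb1cc1 lost it without S5 or S6, and Tex264 without S5, S6, S7 or S8. Of the 12 members named by genotype in mOBs, 3 changed sign, none of them called, and the signs of the others of the 40 were not followed: Map1lc3a was -0.20 with thinned cells, Gabarap ran from -0.14 to 0.012 with 1 library left out, and Lamp2 was 0.0017 without the low-count filter, 0.0053 and 0.013 with looser and stricter OB selection, 0.049 without OBs bearing haematopoietic, endothelial or smooth muscle markers, and -0.057 to 0.072 with 1 library left out. Taking UMIs over genes other than collagen moved the median of all genes by 0.15 in the other cells. The causes were not tested, beyond fewer members or libraries entering a test. In eOBs, with the smallest sums, 26 of 37 intervals lay within a doubling or halving, beside 36 of 39 in mOBs.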
